A study of Mus musculus with 60 samples.

Results

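The glycogen and glycolysis enzymes described here are 10 genes, chosen by symbol: Pygm, Pfkm, Aldoa, Gapdh, Pgk1, Pgam2, Eno3, Pkm, Ldha and Ldhb. They fill 11 of the 54352 gene entries of the count table, because Aldoa has 2 entries, and 1 of these (ENSMUSG00000114515) held 0 counts in all 60 libraries. The table came from 3′ digital gene expression sequencing, which counts reads from the 3′ ends of messenger RNAs, in triceps muscle, subcutaneous white adipose tissue (scWAT) and visceral white adipose tissue (vWAT). All mice were C57BL/6JN, and the 20 animals gave 1 library of each tissue. The sample labels give 12-week-old mice and a line on the series gives 6-week-old mice. These were taken here as the ages at collection and at the start. The 4 groups of 5 mice were wheel-trained on high-fat diet (HFD, 60% of kcal as fat), sedentary on HFD, wheel-trained on chow (10% of kcal as fat) and sedentary on chow. The diets lasted 6 weeks, and voluntary wheel running filled the last 3. Mice of every group were fasted for 6 hours, and wheels were locked for the 24 hours before collection. The labels give no genotype or transgene, and the mice of a group are separate animals by their codes.

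Pygm encodes the muscle form of glycogen phosphorylase, which releases glucose units from stored glycogen. Phosphofructokinase (Pfkm), aldolase A (Aldoa), glyceraldehyde-3-phosphate dehydrogenase (Gapdh), phosphoglycerate kinase (Pgk1), muscle phosphoglycerate mutase (Pgam2), muscle enolase (Eno3) and pyruvate kinase (Pkm) then carry the sugar down to pyruvate. Lactate dehydrogenase is a tetramer of A chains (Ldha), abundant in fast glycolytic fibres, and B chains (Ldhb), abundant in heart and in oxidative fibres, and it interconverts pyruvate and lactate. Fast fibres are known for high levels of these enzymes other than the B chain, while endurance training is known to raise the enzymes of fat oxidation and respiration in muscle.

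On the GRCm38 (mm10) assembly the genes lie at chr19:6384399-6398459 (Pygm), chr15:98092589-98132451 (Pfkm), chr7:126795234-126800751 (Aldoa), chr6:125161715-125166467 (Gapdh), chrX:106187100-106203699 (Pgk1), chr11:5801640-5803733 (Pgam2), chr11:70657202-70662513 (Eno3), chr9:59656368-59679375 (Pkm), chr7:46841475-46855627 (Ldha) and chr6:142490249-142507957 (Ldhb), all protein-coding in the GENCODE annotation. The promoters of 3 of them are shown because Ldhb and Pygm were the members that passed the test for training, and Ldha encodes the partner chain of Ldhb. Each is the 300-base RefSeq window (GRCm38.p6) on the gene's own strand, with capitals for matches to the motifs named after them. They are chr6:142507908-142508207 on the minus strand for Ldhb, chr19:6384158-6384457 on the plus strand for Pygm, and chr7:46845554-46845853 on the plus strand for Ldha, for which RefSeq gives 2 windows.
Ldhb: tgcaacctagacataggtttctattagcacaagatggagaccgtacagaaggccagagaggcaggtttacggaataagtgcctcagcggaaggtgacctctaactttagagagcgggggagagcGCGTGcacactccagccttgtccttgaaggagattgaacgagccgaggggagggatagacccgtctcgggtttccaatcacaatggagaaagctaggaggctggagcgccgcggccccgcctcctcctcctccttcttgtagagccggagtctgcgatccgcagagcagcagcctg
Pygm: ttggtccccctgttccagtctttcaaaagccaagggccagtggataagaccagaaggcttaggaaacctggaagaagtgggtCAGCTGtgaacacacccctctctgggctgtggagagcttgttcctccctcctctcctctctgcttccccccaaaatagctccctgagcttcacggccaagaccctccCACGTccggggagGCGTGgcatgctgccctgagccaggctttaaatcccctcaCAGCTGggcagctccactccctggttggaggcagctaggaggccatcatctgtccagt
Ldha: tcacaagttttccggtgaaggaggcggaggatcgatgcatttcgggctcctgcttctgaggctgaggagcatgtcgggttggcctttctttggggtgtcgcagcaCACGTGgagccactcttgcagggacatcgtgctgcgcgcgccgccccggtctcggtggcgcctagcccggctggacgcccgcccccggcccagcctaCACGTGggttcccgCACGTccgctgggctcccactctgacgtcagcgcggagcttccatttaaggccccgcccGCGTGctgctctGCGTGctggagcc
The Ldhb window had a GC content of 57.3% and 17 CpG dinucleotides, the Pygm window 58.7% and 4, and the Ldha window 67.3% and 30. The motifs searched on both strands were the hypoxia response core ACGTG, its form GCGTG, the E-box CACGTG (which contains ACGTG), the myogenic E-box CAGCTG and the TATA box TATAAA. Over all 17 windows of the 10 members, ACGTG was in 9, against 19.6% of the 32851 RefSeq windows of the same length. GCGTG was in 8 member windows (32.4% of all windows), CAGCTG in 5 (16.3%), CACGTG in 2 (7.15%) and TATAAA in 0 (13.6%). Some windows of Aldoa and of Pfkm overlap, so the same site can be counted again. By gene, ACGTG was in 7 of the 10 members, GCGTG in 6, CAGCTG in 5, CACGTG in 2 and TATAAA in 0. The Ldhb window matched the G form of the hypoxia core alone. The Pygm window matched both forms of that core and the myogenic E-box, and the Ldha window both forms and the other E-box. These matches are descriptions of letters, and whether any factor binds there was not tested.

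Total counts per library were 651030 to 744581 in triceps, 505336 to 720220 in scWAT and 580173 to 689060 in vWAT. The 10 enzymes took 2.36% to 4.21% of all triceps counts. All 15 skeletal muscle markers were detected in every triceps library, and the heart markers Nppa and Nppb were at 0. The library codes of each tissue are consecutive without a gap, and the labels mark no batches. They were split here into assumed blocks of 12 codes, with edges set in the analysis and not by the labels. In triceps this gave 3 runs: 5 chow libraries (2 trained, 3 sedentary), 12 libraries with all 4 groups, and 3 HFD libraries (2 trained, 1 sedentary). Summed intestine markers were 199 to 233 counts in the run of 5 and 0 to 3 in the other two runs, and summed brain markers were 109 to 153 counts in the run of 3 and 23 to 61 elsewhere. The labels do not say which libraries were prepared together, so values within the run of 12 are given beside the main results. In triceps, mitochondrially encoded genes took 35.8% to 43.2% of counts in trained mice on HFD, 23.9% to 33.6% in sedentary mice on HFD, 32.3% to 41.6% in trained mice on chow and 27.2% to 31.2% in sedentary mice on chow. Summed adipocyte markers in triceps were 2102 to 4570 counts in trained mice on HFD and 3873 to 4863 in sedentary mice on HFD. Apart from a fit without mitochondrially encoded genes, the part of either measure in the results below was not tested. In whole muscle, fewer fibres of a type and less RNA per fibre cannot be told apart.

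In triceps of mice on HFD, training changed 2 of the 10 enzymes: Ldhb rose and Pygm fell. Over all genes, 236 of 4410 (5.35%) passed an adjusted p below 0.05 in this comparison, 3.33% higher and 2.02% lower. Levels are CPM, counts scaled to a library size of 1000000, with library sizes adjusted by the trimmed mean of M values (TMM), and tests are edgeR quasi-likelihood tests with Benjamini-Hochberg adjustment over all genes tested. An unadjusted p under 0.05 was found for 838 of the 4410 genes. Among the 10 enzymes, 5 had an unadjusted p under 0.05 (Ldhb, Pygm, Aldoa, Ldha and Pkm), and DESeq2 also called 2. Their median log2 fold change was -0.15, against -0.01 over all 4410 genes. TMM scaling lifted the training effects on HFD by 0.19 on the log2 scale over scaling by total counts.

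Ldhb, the B chain of lactate dehydrogenase, had 281, 499, 566, 214 and 220.0 CPM in trained mice on HFD, against 35.5, 19.2, 55.4, 141 and 122 CPM in sedentary mice on HFD. Every trained library was above every sedentary one, and of the 10 members Ldhb was the one whose trained and sedentary groups on HFD did not overlap. Over all 4410 genes tested, 209 (4.74%) had trained and sedentary groups on HFD that did not overlap, in either direction. The means were 356 ± 165 CPM in trained and 74.6 ± 53.9 CPM in sedentary mice (SD, n = 5 each), a log2 fold change of 2.25 (SE 0.56, edgeR adjusted p = 0.025). Within the run of 12 libraries the log2 fold change was 2.84 (SE 0.56, edgeR adjusted p = 0.0198). Without mitochondrially encoded genes it was 2.26 (SE 0.56, edgeR adjusted p = 0.0254). In the run of 3 libraries, the 214 and 220.0 CPM of the trained mice stood against 122 CPM in the sedentary mouse. The call depended on single libraries: without sedentary mouse 1, 2 or 3 or trained mouse 2 or 3 on HFD the adjusted p passed 0.05, and over all 10 such fits the log2 fold change was 2.00 to 2.61 and the adjusted p 0.0173 to 0.0789.

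Pygm, which frees glucose units from glycogen, had 1362, 1024, 1062, 1475 and 1412 CPM in trained mice on HFD, against 2351, 2002, 1846, 1398 and 1462 CPM in sedentary mice on HFD. The groups overlapped, since the 2 lowest sedentary libraries lay within the trained range. The means were 1267 ± 209 CPM in trained and 1812 ± 394 CPM in sedentary mice (SD, n = 5 each), a log2 fold change of -0.52 (SE 0.14, edgeR adjusted p = 0.017). Within the run of 12 libraries it was -0.72 (SE 0.16, edgeR adjusted p = 0.0048), and without mitochondrially encoded genes -0.51 (SE 0.14, edgeR adjusted p = 0.0228). The same single libraries carried this call, apart from sedentary mouse 3: without sedentary mouse 1 or 2 or trained mouse 2 or 3 the adjusted p passed 0.05, and the log2 fold change over the 10 fits was -0.60 to -0.41.

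The other 8 enzymes did not pass the test for training on HFD, and their trained and sedentary groups overlapped. Pfkm, which catalyses the committed step of glycolysis, had 689, 662, 588, 803 and 813 CPM in trained mice on HFD, against 994, 721, 891, 675 and 659.7 CPM in sedentary mice on HFD. Its log2 fold change was -0.15 (SE 0.13, edgeR adjusted p = 0.582). Aldoa, which splits fructose-1,6-bisphosphate, had 8656, 6938, 7072, 10511 and 9325 CPM in trained mice, against 10484, 12657, 11119, 8719.7 and 9217 CPM in sedentary mice. The lowest 3 trained libraries were below every sedentary one, and the log2 fold change was -0.30 (SE 0.13, edgeR adjusted p = 0.192). Gapdh, often used as a reference gene, had 7767, 7699, 7003, 8343 and 7167 CPM in trained mice, against 8037, 10028, 8744, 7925 and 7510.0 CPM in sedentary mice. The Gapdh log2 fold change was -0.15 (SE 0.12, edgeR adjusted p = 0.516).

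Further down the pathway, Pgk1, which makes ATP at the first of the 2 ATP-forming steps, had 544, 508, 511, 661 and 579 CPM in trained mice on HFD, against 397, 561, 496, 481 and 549 CPM in sedentary mice on HFD. Its log2 fold change was 0.18 (SE 0.12, edgeR adjusted p = 0.452), the only positive one besides Ldhb, and it was -0.00 when total counts replaced TMM scaling. Pgam2, which moves the phosphate group of phosphoglycerate, had 2540.3, 2069, 2491, 2339.5 and 2669 CPM in trained mice, against 2559, 3044, 2593, 2361 and 2125 CPM in sedentary mice. Eno3, which forms phosphoenolpyruvate, had 4189, 3714, 3868, 4422 and 4378 CPM in trained mice, against 3617, 4876, 4266, 3811 and 4220.0 CPM in sedentary mice. For Pgam2 and Eno3 the trained and sedentary ranges overlapped, with log2 fold changes of -0.07 (edgeR adjusted p = 0.804) and -0.02 (edgeR adjusted p = 0.961), each with an SE of 0.11.

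Pkm, the enzyme of the last ATP-forming step, had 934, 878, 909.5, 1147 and 1178 CPM in trained mice on HFD, against 1303, 1401, 1252, 1015 and 1088 CPM in sedentary mice on HFD. In 3 of 5 trained mice it was below every sedentary one, and the log2 fold change was -0.26 (SE 0.12, edgeR adjusted p = 0.207). Ldha, the A chain of lactate dehydrogenase, had 3530.1, 3047, 2968, 3661 and 3722 CPM in trained mice, against 3418, 5246, 4326, 3679 and 3930.1 CPM in sedentary mice. The log2 fold change of Ldha was -0.28 (SE 0.12, edgeR adjusted p = 0.189), opposite in sign to that of Ldhb. Scaling by total counts called 4 more of these enzymes lower after training on HFD: Aldoa at -0.48, Gapdh at -0.34, Ldha at -0.46 and Pkm at -0.45 (edgeR adjusted p = 0.0132 to 0.0334). Among the 12 libraries of the mixed run, Aldoa at -0.50 (edgeR adjusted p = 0.0318) and Pkm at -0.45 (edgeR adjusted p = 0.0306) joined Ldhb and Pygm. The share of all genes called in either of these fits is not given here.

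**Figure D1:**
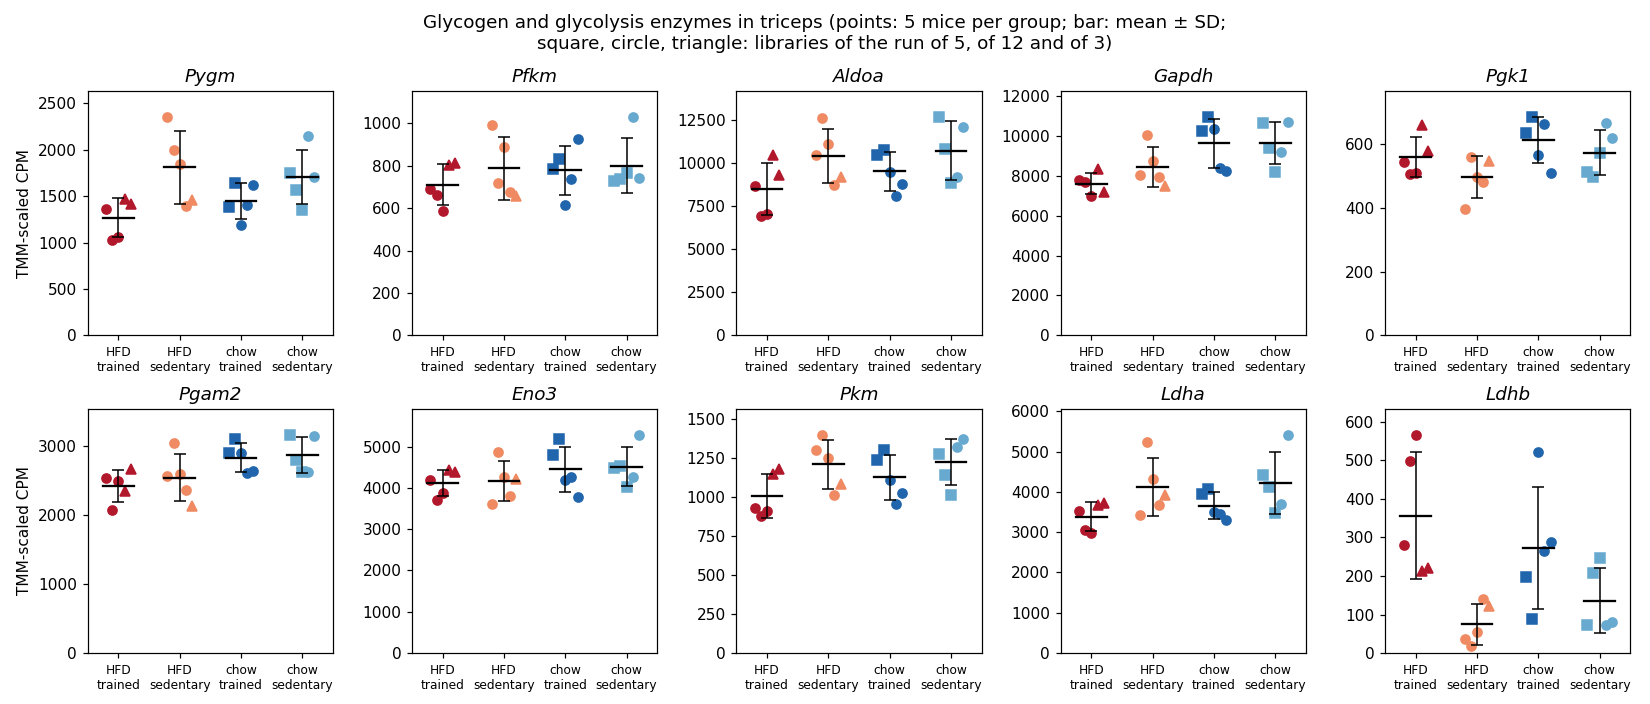
TMM-scaled CPM of the 10 enzymes in the 20 triceps libraries (linear axes starting at 0), with 1 point per mouse, the group mean as a line and the SD as bars. Square, circle and triangle mark the runs of 5, 12 and 3 libraries. Trained and sedentary mice on HFD do not overlap for Ldhb, as for 4.74% of all genes tested, and Pygm averaged 1267 CPM in trained and 1812 CPM in sedentary mice on HFD.

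On chow, training called none of the 10 enzymes (edgeR, 0 at an unadjusted p under 0.05, and 0 by DESeq2). Of all 4410 genes, 33 (0.748%) passed and 476 had an unadjusted p under 0.05. Ldhb had 197, 89.4, 521, 266 and 288 CPM in trained mice on chow, against 72.2, 207, 247, 72.4 and 79.7 CPM in sedentary mice on chow. These groups overlapped, and the log2 fold change was 0.98 (SE 0.54, edgeR adjusted p = 0.541). In the run of 12 libraries, the 521, 266 and 288 CPM of trained mice stood clear of the 72.4 and 79.7 CPM of sedentary mice, with a log2 fold change of 2.22 (SE 0.71, edgeR adjusted p = 0.31). In the run of 5, the 197 and 89.4 CPM of trained mice lay within the 72.2 to 247 CPM of the 3 sedentary mice.

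Pygm on chow had 1379, 1646, 1185, 1407 and 1621 CPM in trained mice, against 1752, 1572, 1347, 2150.4 and 1711 CPM in sedentary mice. Here too the groups overlapped, and the log2 fold change of -0.24 (SE 0.14, edgeR adjusted p = 0.553) did not pass. For the remaining 8 enzymes the chow groups overlapped as well, and 142 of the 4410 genes (3.22%) had chow groups that did not overlap. Trained and sedentary mice on chow had 615 to 927 and 729 to 1029.6 CPM of Pfkm, 8105 to 10802 and 8838 to 12682 CPM of Aldoa, and 8244 to 10940.3 and 8209 to 10718 CPM of Gapdh. They had 511 to 685 and 497 to 668 CPM of Pgk1, 2603 to 3102 and 2622 to 3158 CPM of Pgam2, and 3785 to 5177 and 4020.2 to 5282 CPM of Eno3. Pkm was at 958 to 1307 CPM in trained and 1012 to 1373 CPM in sedentary mice on chow, and Ldha at 3294 to 4075 CPM in trained and 3468 to 5413 CPM in sedentary mice on chow. Their log2 fold changes ran from -0.21 (Ldha, edgeR adjusted p = 0.556) to 0.10 (Pgk1, edgeR adjusted p = 0.876).

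Averaged over both diets, training called the same 2 enzymes, Ldhb higher by 1.62 (SE 0.39, edgeR adjusted p = 0.0138) and Pygm lower at -0.38 (SE 0.10, edgeR adjusted p = 0.00846) on the log2 scale. For this average 389 of all genes (8.82%) passed, 5.8% higher and 3.02% lower. Both calls held in each of the 28 other fits, which were 8 other settings and 20 fits without 1 library. Ldha was next among the members at -0.25 (SE 0.09, edgeR adjusted p = 0.069) and was called by DESeq2 (adjusted p = 0.0329). The training effect on HFD minus that on chow was 1.27 for Ldhb (SE 0.78) and -0.28 for Pygm (SE 0.19), each with an edgeR adjusted p of 0.986. For this difference edgeR called 0 of the 4410 genes (226 at an unadjusted p under 0.05) and 0 members, and DESeq2 called 0 members, so a different response on the 2 diets was not shown.

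The balance of Ldha and Ldhb RNA counts moved with Ldhb, and the protein chains were not measured. The Ldhb share of Ldha plus Ldhb counts was 7.38%, 14.1%, 16.0%, 5.52% and 5.58% in trained mice on HFD, against 1.03%, 0.364%, 1.27%, 3.69% and 3.01% in sedentary mice on HFD. The 2 sets did not overlap. Ldhb levels alone already separated the same libraries, so the share is not a separate result. The means were 9.71% ± 4.97 in trained and 1.87% ± 1.41 in sedentary mice (SD, n = 5 each), a difference of 7.84 percentage points, with a two-sided exact permutation p of 0.00794, the smallest that 5 against 5 can give. On chow the share was 4.76%, 2.15%, 13.0%, 7.14% and 8.04% in trained mice, against 1.61%, 4.79%, 6.65%, 1.92% and 1.45% in sedentary mice. The chow groups overlapped, with means of 7.01% ± 4.04 in trained and 3.28% ± 2.33 in sedentary mice, and the difference of 3.72 points had a two-sided exact permutation p of 0.0873. The exact 95% binomial interval of the lowest share, 0.364%, was 0.199% to 0.611%, and such intervals cover counting error only.

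**Figure D2:**
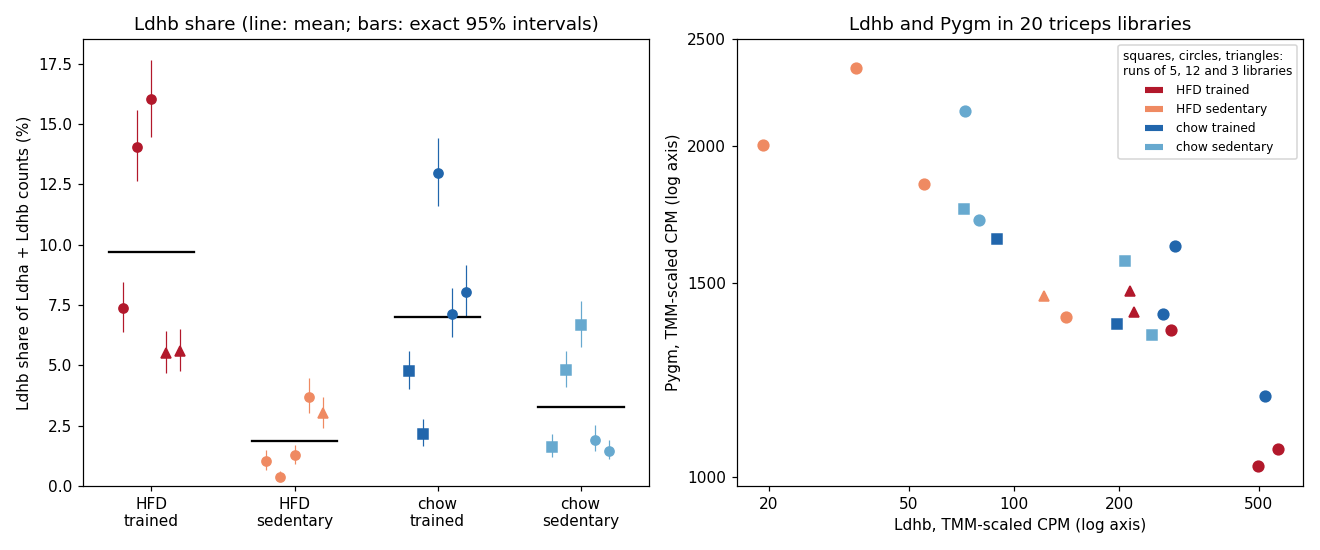
Left, the Ldhb share of Ldha plus Ldhb counts in each triceps library in percent, with exact 95% binomial intervals and the group mean as a line. Right, Pygm against Ldhb in the same 20 libraries, in TMM-scaled CPM on log axes. Trained mice on HFD had shares of 5.52% to 16.0%, above the 0.364% to 3.69% of sedentary mice on HFD, and libraries with more Ldhb had less Pygm.

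Across the 20 triceps libraries, Ldhb and Pygm ran in opposite directions. On log2 CPM, Pearson's r was -0.891 and Spearman's rho -0.862 (permutation p = 1e-05, the smallest that 100000 permutations can give, and 4.5e-05 after adjustment over the 9 other members). The permutations shuffled all 20 libraries freely across the groups, so their p values do not test the relation within groups. Without the 2 libraries farthest from the Ldhb median r was -0.876, and on deviations from the group means it was -0.841, so the relation was present within groups. Split by run, it was -0.899 over the 12 libraries of the mixed run and -0.828 over the other 8. Pkm followed Ldhb in the same inverse way (r = -0.819, rho = -0.836, adjusted permutation p = 4.5e-05), with -0.793 without the 2 farthest libraries, -0.845 on deviations from the group means, -0.869 over the mixed run and -0.639 over the other 8 libraries.

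Aldoa (r = -0.75, rho = -0.723) and Ldha (r = -0.716, rho = -0.713) also had less RNA where Ldhb had more. The adjusted permutation p was 0.00054 for r and 0.0012 for rho of Aldoa, and 0.00067 and 0.0012 for those of Ldha. Over the mixed run and over the other 8 libraries, r was -0.832 and -0.631 for Aldoa and -0.724 and -0.787 for Ldha, and without the 2 libraries farthest from the Ldhb median it was -0.727 for Aldoa and -0.795 for Ldha. On deviations from the group means it was -0.722 for Aldoa and -0.624 for Ldha. Pfkm had r = -0.503 (adjusted permutation p = 0.043) and rho = -0.433 (adjusted permutation p = 0.082). Over the 8 libraries outside the mixed run its r was 0.237, so its relation did not hold within both sets. For Gapdh, Pgam2 and Eno3, r was -0.404 to -0.365, and for Pgk1 it was 0.114, with adjusted permutation p of 0.11 or more. On deviations from the group means, r was -0.618 for Gapdh, -0.666 for Pgam2, -0.608 for Eno3 and -0.545 for Pfkm, and the sign for Pgk1 turned, at -0.376.

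The genes most like the 10 enzymes were found by correlation with the mean of the standardised members over the 20 triceps libraries, as a description with no test. They were Myl1 (r = 0.938), Tnnt3 (0.894), Tpi1 (0.866), Tnni2 (0.841) and Selenow (0.834). The mean includes Ldhb, which correlated negatively with every other member but Pgk1 (-0.89 with Pygm, 0.11 with Pgk1). Likeness to this mean is therefore not likeness to Ldhb. Myl1, Tnnt3 and Tnni2 encode a fast myosin light chain and fast troponin subunits, Tpi1 is triose phosphate isomerase, the glycolytic enzyme next to aldolase, and Selenow is a selenoprotein.

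Fibre-type genes also changed with training on HFD. Of 13 tested fast-fibre genes, 7 fell with training on HFD and 1 rose (median log2 fold change -0.47). Pvalb, the calcium buffer of fast fibres, fell by 0.85 on the log2 scale (SE 0.14, edgeR adjusted p = 0.000289). In contrast Myh1, a fast myosin heavy chain, rose by 1.91 (SE 0.34, edgeR adjusted p = 0.00319). Myh1 had 2537, 3004, 2119, 1812 and 2158 CPM in trained mice on HFD, against 445, 219, 535, 1167 and 739.5 CPM in sedentary mice on HFD. As for Ldhb, the groups did not overlap, and sedentary mouse 4 was the highest of its group and sedentary mouse 2 the lowest for both genes. Among trained mice on HFD, Ldhb was highest in mouse 3 and Myh1 in mouse 2. No relation by library between fibre genes and Ldhb or Pygm was computed. Of 13 slow or oxidative fibre genes 1 rose (median 1.20): Mb, the oxygen carrier myoglobin, had 2342, 4046, 3343, 1898 and 1627 CPM in trained mice, against 506, 292, 603, 1636 and 1155 CPM in sedentary mice. Mb overlapped by 1 pair of libraries, with a log2 fold change of 1.66 (SE 0.42, edgeR adjusted p = 0.0275). Without single libraries the fast-fibre calls numbered 3 without sedentary mouse 1, 4 without trained mouse 2 or 3 and 5 without sedentary mouse 2 or 3. The slow-fibre calls numbered 0 without any of these 5 libraries, and 2 without trained mouse 5 or sedentary mouse 4. The part of fibre make-up in the Ldhb and Pygm changes was not tested.

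Beside the 2 of 10 enzymes that passed with training on HFD, 34 of 78 tested nuclear genes of oxidative phosphorylation rose and 0 fell (median log2 fold change 0.39), 3 of 13 genes of the tricarboxylic acid (TCA) cycle rose and 0 fell (median 0.38), and 15 of 21 genes of fatty acid oxidation rose and 1 fell (median 0.81). The gene that fell was Ucp3, the muscle uncoupling protein. Of 6 other glycolysis genes tested, edgeR called 0 (median -0.07). Hadhb, a subunit of the mitochondrial trifunctional protein of fat oxidation, had 515, 726, 668, 426 and 504 CPM in trained mice on HFD, against 207, 325, 228, 331 and 326 CPM in sedentary mice on HFD. Its groups did not overlap, and it rose by 1.00 (SE 0.16, edgeR adjusted p = 0.000359). Cyc1, the cytochrome c1 subunit of complex III, rose by 0.77 (SE 0.14, edgeR adjusted p = 0.00079).

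These counts moved with the scaling, the library run and single libraries. The share of all genes called in each of these other fits is not given here, so their counts have no background beside them. On total counts, 6 of the 10 enzymes passed, 12 oxidative phosphorylation genes, 1 TCA gene and 13 fatty acid oxidation genes rose with training on HFD and 11 fast-fibre genes fell, and the members' median was -0.34. In the run of 12 libraries, 4 of the 10 enzymes, 56 oxidative phosphorylation genes and 6 TCA genes passed. Without single libraries of the HFD groups, the oxidative phosphorylation count was 17 to 47, at 17 without trained mouse 2, 19 without trained mouse 3 or sedentary mouse 1 and 22 without sedentary mouse 3. The TCA count was then 0 without trained mouse 2, 1 without sedentary mouse 3 and 5 without trained mouse 5, and the fatty acid oxidation count 12 to 18. Other glycolysis genes gave 1 call without trained mouse 4 or sedentary mouse 4. With training on chow, 5 oxidative phosphorylation genes, 1 TCA gene (Suclg2) and 0 fatty acid oxidation genes rose, Ucp3 fell, and 1 fast-fibre gene (Pvalb) fell. The chow counts rest on single libraries too. Oxidative phosphorylation had 0 calls without trained chow mouse 1 or sedentary chow mouse 4 or 5, 1 to 3 without trained mouse 3, 4 or 5 or sedentary mouse 1, and 16 without sedentary chow mouse 3. The Ucp3 call was the fatty acid oxidation count of 1, which became 0 without trained mouse 1, 4 or 5 or sedentary mouse 2 or 4 and 3 without sedentary mouse 3. The fast-fibre count on chow was 2 without trained mouse 2 or sedentary mouse 3 and 0 without any of the other 8 libraries. The TCA count was 0 without trained mouse 4 or sedentary mouse 5.

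**Figure D3:**
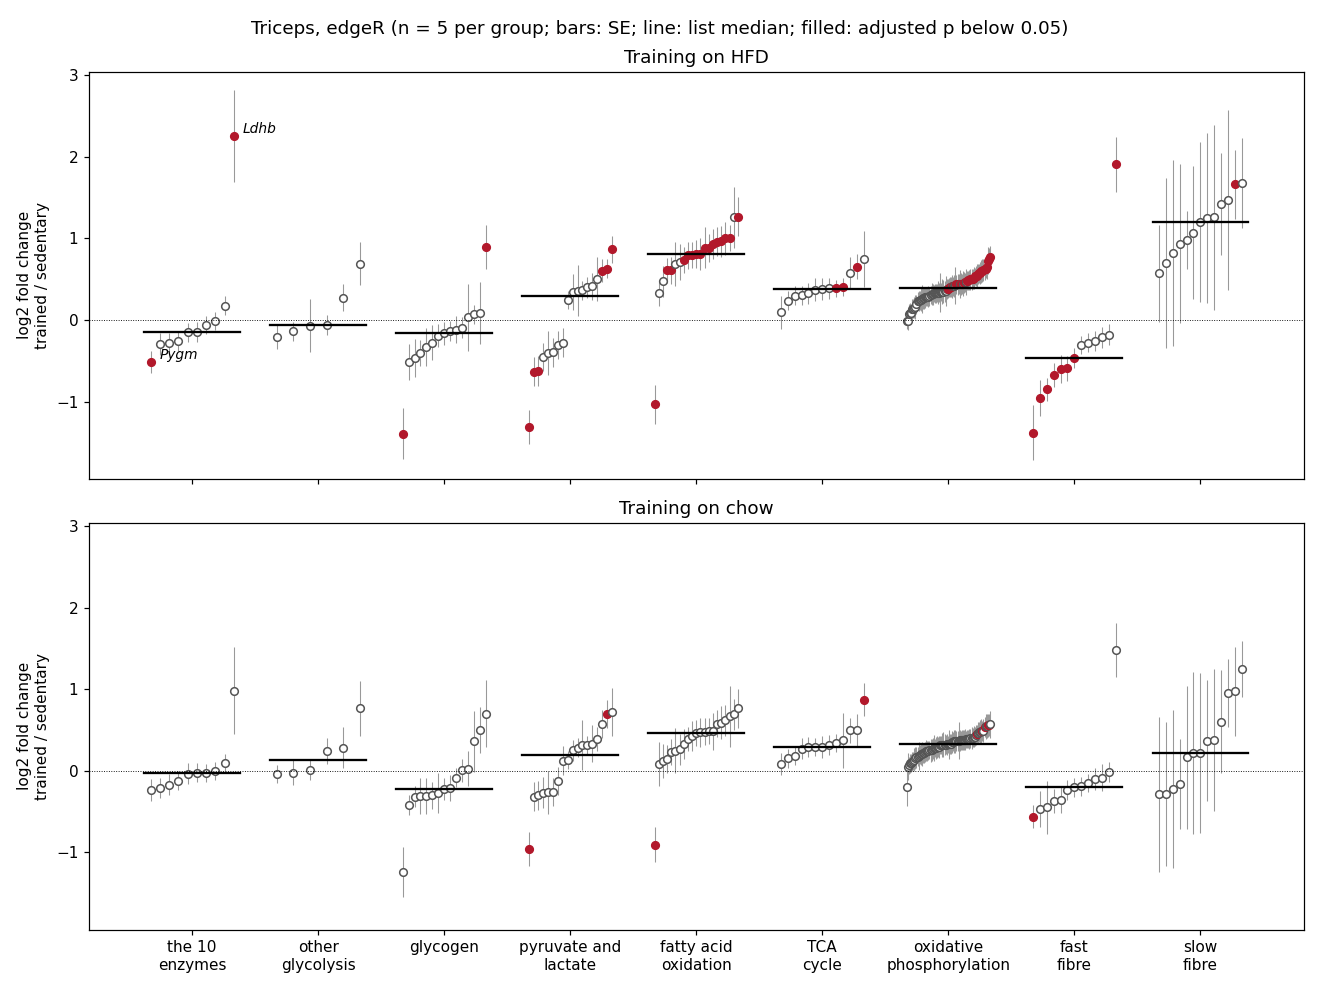
Log2 fold changes (trained over sedentary, edgeR) of every tested gene of 9 lists in triceps, on HFD above and on chow below; bars are SE, lines are list medians and filled points passed an adjusted p below 0.05 (n = 5 mice per group). On HFD 2 of the 10 enzymes passed, Ldhb at 2.25 and Pygm at -0.52, and 34 of 78 oxidative phosphorylation genes and 15 of 21 fatty acid oxidation genes rose. On total counts 6 enzymes passed and 12 oxidative phosphorylation genes rose.

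Genes that act on either side of the 10 enzymes also changed. Pdk4, the kinase that switches off pyruvate dehydrogenase, had 215, 300.1, 259.6, 302 and 384 CPM in trained mice on HFD, against 833, 536, 605, 757 and 913 CPM in sedentary mice on HFD. It had 388, 349, 690.3, 275 and 373 CPM in trained mice on chow, against 772, 718, 929, 896 and 701 CPM in sedentary mice on chow. The groups did not overlap on either diet, and Pdk4 fell with training by 1.32 on HFD (SE 0.21, edgeR adjusted p = 0.000908) and by 0.96 on chow (SE 0.21, edgeR adjusted p = 0.0334) on the log2 scale. Pdha1, the catalytic subunit that Pdk4 phosphorylates, had 609, 668, 613, 633 and 682 CPM in trained mice on HFD, against 322, 439, 409, 445 and 458 CPM in sedentary mice on HFD. Its groups did not overlap either, and it rose by 0.63 (SE 0.11, edgeR adjusted p = 0.000526). Of 18 tested genes around pyruvate and lactate, 3 rose (Pdha1, Pdhx and Dld, all of the pyruvate dehydrogenase complex) and 3 fell (Pdk4, Fbp2 and Gpd2) with training on HFD, and 1 rose (Dlat) and 1 fell (Pdk4) with training on chow. The chow count of 2 became 1 without sedentary mouse 2 and 0 without any trained mouse but mouse 3 or without sedentary mouse 1, 4 or 5.

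Among 15 tested glycogen genes, Gbe1 rose and Ppp1r3c fell with training on HFD, and 0 passed on chow. Ppp1r3c, a subunit that brings protein phosphatase 1 to glycogen, had 63.5, 55.6, 78.7, 61.9 and 121 CPM in trained mice on HFD, against 265, 138, 258, 162 and 182 CPM in sedentary mice on HFD. The groups did not overlap, and it fell by 1.40 (SE 0.31, edgeR adjusted p = 0.0131) on the log2 scale. Gbe1, the glycogen branching enzyme, had 37.8, 36.5, 46.9, 29.5 and 28.0 CPM in trained mice on HFD, against 21.8, 8.22, 16.8, 27.4 and 21.0 CPM in sedentary mice on HFD. It too did not overlap and rose by 0.89 (SE 0.27, edgeR adjusted p = 0.041). The count of 2 became 1 without trained mouse 1, 2 or 3 or sedentary mouse 1, 2 or 3 on HFD, and chow gave 1 call without sedentary mouse 2. Phosphorylase kinase, which activates the Pygm product, had subunit log2 fold changes of -0.41 for Phkg1 (edgeR adjusted p = 0.143) and -0.52 for Phka1 (edgeR adjusted p = 0.189), neither past the threshold. Of the other glycolysis genes, Pfkfb1, which sets the level of a phosphofructokinase activator, had 0.69 (edgeR adjusted p = 0.129), and Hk2, muscle hexokinase, had 0.27 (edgeR adjusted p = 0.389).

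Diet called none of the 10 enzymes in triceps. In sedentary mice, HFD against chow gave 0 of 4410 genes by edgeR (198 at an unadjusted p under 0.05, background 0%) and 0 members by DESeq2. Log2 fold changes were negative in 9 of 10 members (median -0.08) and in 50.6% of all genes. TMM scaling shifted this comparison by -0.07, and in some other fits Aldoa, Ldha, Pfkm, Pkm and Pygm changed sign. Ldhb was at -0.88 (SE 0.59, edgeR adjusted p = 0.975) and Pygm at 0.09 (edgeR adjusted p = 0.975). In trained mice, HFD against chow also gave 0 genes by edgeR (308 at an unadjusted p under 0.05) and 0 members by DESeq2. There Gapdh had 7767, 7699, 7003, 8343 and 7167 CPM in trained mice on HFD, against 10238, 10940.3, 10335, 8403 and 8244 CPM in trained mice on chow. These groups overlapped by 1 pair of libraries, and the log2 fold change of -0.34 (SE 0.12) had an unadjusted edgeR p of 0.00488 and an adjusted p of 0.622. From high to low, mean Ldhb was 356 CPM in trained mice on HFD, 272 CPM in trained mice on chow, 136 CPM in sedentary mice on chow and 74.6 CPM in sedentary mice on HFD. From low to high, mean Pygm was 1267 CPM in trained mice on HFD, 1448 CPM in trained mice on chow, 1707 CPM in sedentary mice on chow and 1812 CPM in sedentary mice on HFD. No neighbours in either order passed the test.

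Compared with fat, all 10 enzymes were higher in triceps in a joint fit of the 60 libraries, in which 80.6% of 8501 genes differed between triceps and vWAT (33.5% higher in triceps) and 80.1% between triceps and scWAT (32.7% higher). The log2 fold changes over vWAT were 1.20 for Ldhb (SE 0.20, edgeR adjusted p = 7.93e-07) to 8.61 for Eno3 (SE 0.68, edgeR adjusted p = 3.34e-16), with a members' median of 3.65 and an all-gene median of -0.27. Over scWAT they were 0.93 for Ldhb (SE 0.20, edgeR adjusted p = 5.71e-05) to 5.44 for Eno3 (SE 0.58, edgeR adjusted p = 7.97e-12), with a members' median of 3.15 and an all-gene median of -0.29. TMM scaling shifted these differences by 1.10 and 1.01. On total counts 9 enzymes remained higher in triceps than in both depots, and Ldhb was at 0.07 over vWAT (edgeR adjusted p = 0.716) and turned to -0.11 over scWAT.

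On CPM of total counts, Eno3 averaged 4182 ± 527 in triceps, 340.5 ± 601 in scWAT and 23.8 ± 32.9 in vWAT (SD, n = 20 each). Pygm averaged 1533 ± 438 CPM in triceps, 152 ± 263 CPM in scWAT and 11.9 ± 16.9 CPM in vWAT. Pgam2 averaged 2585 ± 343 CPM in triceps, 223 ± 401 CPM in scWAT and 17.1 ± 25.1 CPM in vWAT, and Pfkm 753 ± 162 CPM in triceps, 76.3 ± 104 CPM in scWAT and 15.6 ± 9.57 CPM in vWAT. These 4 muscle-type enzymes had an SD above the mean in scWAT. Aldoa averaged 9565 ± 1942 CPM in triceps, 2698 ± 1571 CPM in scWAT and 1523 ± 298 CPM in vWAT. Gapdh averaged 8567 ± 1292 CPM in triceps, 1698 ± 1287 CPM in scWAT and 1545 ± 378 CPM in vWAT. Ldha averaged 3749 ± 748 CPM in triceps, 2064 ± 603 CPM in scWAT and 1686 ± 386 CPM in vWAT. Pkm averaged 1116 ± 210.4 CPM in triceps, 476 ± 254 CPM in scWAT and 251 ± 73.4 CPM in vWAT, and Pgk1 543 ± 74.9 CPM in triceps, 206 ± 63.4 CPM in scWAT and 158 ± 27.0 CPM in vWAT. Ldhb averaged 195 ± 137 CPM in triceps, 181 ± 50.1 CPM in scWAT and 160.0 ± 53.4 CPM in vWAT, and its ranges overlapped between all 3 tissues.

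**Figure D4:**
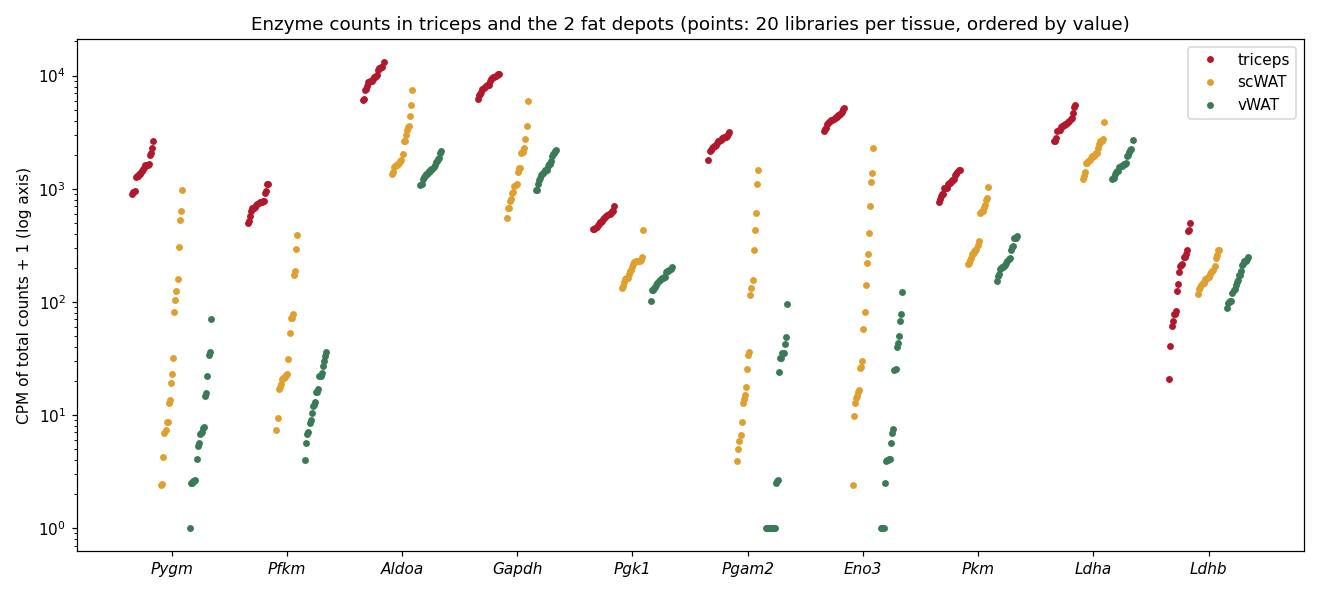
CPM of total counts plus 1 (log axis) of the 10 enzymes in 20 libraries each of triceps, scWAT and vWAT, ordered by value within a tissue. In scWAT, Pygm, Pfkm, Pgam2 and Eno3 span a wider range on this axis than the other 6 enzymes, and Ldhb has overlapping levels in all 3 tissues.

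The training effect on HFD differed between triceps and vWAT for 10 genes (0.118%) and between triceps and scWAT for 25 genes (0.294%), and for 0 members by edgeR (816 and 964 genes at an unadjusted p under 0.05). For Ldhb the difference was 2.31 against vWAT (SE 0.58, edgeR adjusted p = 0.0782) and 1.85 against scWAT (SE 0.57, edgeR adjusted p = 0.145). In vWAT itself the training effect on Ldhb on HFD was -0.08 (SE 0.31, edgeR adjusted p = 0.942), and in scWAT 0.35 (SE 0.24, edgeR adjusted p = 0.654). A rise particular to muscle was thus not shown for Ldhb by the test of the difference.

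In scWAT, skeletal muscle markers were present and uneven. Their summed counts were 164 to 1300 in trained mice on HFD, 321 to 42855 in sedentary mice on HFD, 198 to 65972 in trained mice on chow and 114 to 18560 in sedentary mice on chow. The highest libraries were trained chow mouse 3 (65972), sedentary HFD mouse 4 (42855), trained chow mouse 4 (27756) and sedentary chow mouse 1 (18560). Pygm, Pgam2, Eno3 and Pfkm followed these sums from library to library, and the members took 0.417% to 2.40% of scWAT counts. Ldhb stayed at 116 to 286 CPM of total counts in all 20 libraries.

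**Figure D5:**
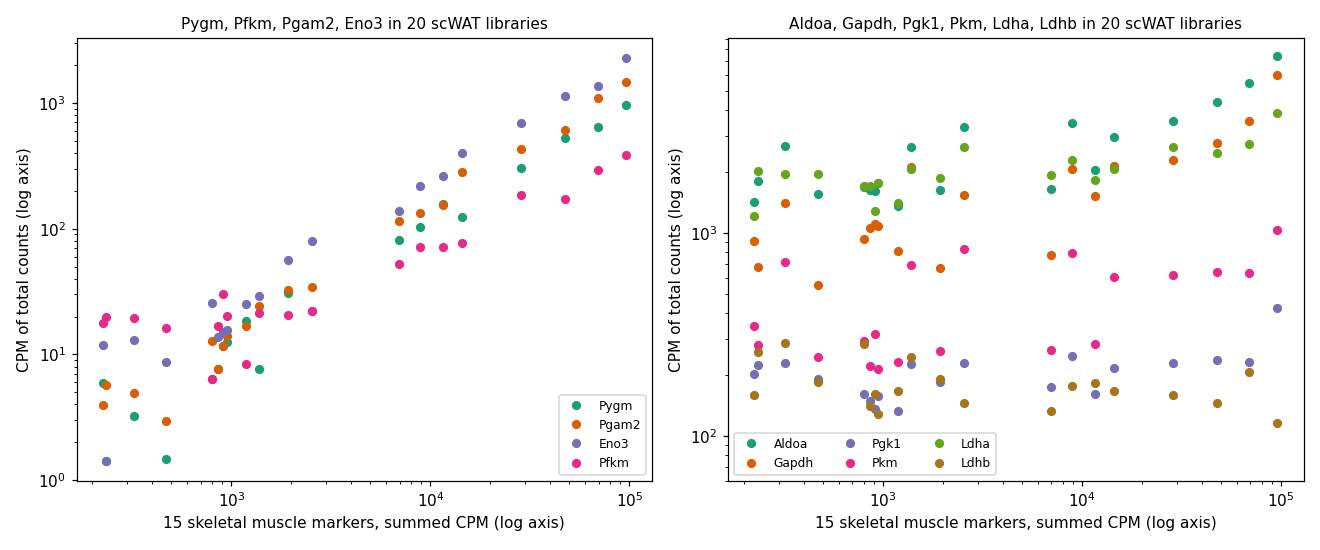
CPM of the 10 enzymes (log axes) against the summed CPM of 15 skeletal muscle markers (log axis) in 20 scWAT libraries. Pygm, Pgam2, Eno3 and Pfkm climb with the marker sum, Aldoa and Gapdh climb at its upper end, and Ldhb lies between 116 and 286 CPM.

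In trained mice, HFD against chow called 4 of 10 enzymes lower in scWAT, where 365 of 7069 genes (5.16%) passed and 2.01% were lower. Pkm had 249.9, 286, 288, 224 and 205 TMM-scaled CPM in trained mice on HFD, against 915, 815, 1441, 732 and 643 CPM in trained mice on chow. Pkm fell by 1.86 on the log2 scale (SE 0.35, edgeR adjusted p = 0.00316). Gapdh fell by 2.15 (edgeR adjusted p = 0.0269), Aldoa by 1.70 (edgeR adjusted p = 0.0251) and Pgk1 by 0.98 (edgeR adjusted p = 0.0178). The summed muscle markers of these libraries were 164 to 1300 counts in trained mice on HFD and 198 to 65972 in trained mice on chow. Summed B cell markers were 4 to 7 counts in trained mice on HFD, against 5, 401, 6, 188 and 449 counts in trained mice 1 to 5 on chow. Trained chow mice 1 and 3, with 5 and 6 B cell marker counts, held 5467 and 65972 muscle marker counts. Trained chow mouse 2, with 401 B cell marker counts, held 198 muscle marker counts. The part of B cells in these values was not tested. With the log2 marker sum as a covariate, a check added after the data were seen, Pkm was at -1.37 (SE 0.31, edgeR adjusted p = 0.00789), while Gapdh at -0.98 (edgeR adjusted p = 0.0606), Aldoa at -0.82 (edgeR adjusted p = 0.088) and Pgk1 at -0.66 (edgeR adjusted p = 0.114) no longer passed. Without trained chow mouse 3, Pkm alone passed (-1.62, edgeR adjusted p = 0.0101). Leaving out any 1 of the trained HFD mice ended the calls of Gapdh and Aldoa (edgeR adjusted p = 0.0503 to 0.0717), and leaving out trained HFD mouse 4 or 5 ended that of Pgk1 (edgeR adjusted p = 0.0611 and 0.0582). Within the run of 9 libraries Pkm was at -1.69 (edgeR adjusted p = 0.281) and within the run of 11 at -1.94 (edgeR adjusted p = 0.112), and 0 members passed in either.

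The other scWAT comparisons called 0 of 10 members by edgeR. The backgrounds were 71 genes (1%) for training on HFD, 0 genes (0%, 376 at an unadjusted p under 0.05) for training on chow, 63 genes (0.891%) for training over both diets and 449 genes (6.35%) for HFD in sedentary mice. At an unadjusted p under 0.05 there were 4 members for training on HFD, 2 for training on chow, 0 over both diets and 1 for HFD in sedentary mice. Over all 7069 genes this threshold gave 785, 376, 708 and 1490 in the same order. DESeq2 called 1 member, Pgam2, for training on HFD and 0 in the other 3 comparisons. The diet by training interaction called 0 genes by edgeR (438 at an unadjusted p under 0.05) and 0 members (6 at an unadjusted p under 0.05), and DESeq2 called 1 member, Pgam2. In sedentary mice Pkm was at -0.95 for HFD against chow (SE 0.34, edgeR adjusted p = 0.105) and passed at -1.19 with the muscle marker covariate (edgeR adjusted p = 0.0134) and at -0.94 with the replicate number as a block (SE 0.27, edgeR adjusted p = 0.0358). The numbers do not pair these 2 groups, since the deviations of their same-numbered libraries correlated at -0.187 to 0.237, above 0.1 in 1 of 5 pairs. Summed B cell markers were 3 to 16 counts in sedentary mice on HFD and 2 to 465 in sedentary mice on chow.

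In vWAT, where Pygm was too low to be tested, 9 enzymes entered the fit. Pkm was lower on HFD than on chow in trained mice, the only member among the 183 of 6990 genes (2.62%) that passed, 1.42% of genes being lower. It had 193, 198, 195, 174 and 235 TMM-scaled CPM in trained mice on HFD, against 415, 412, 238, 253 and 400.2 CPM in trained mice on chow. The log2 fold change was -0.79 (SE 0.21, edgeR adjusted p = 0.0422), and in the run of 12 libraries it was -0.60 (edgeR adjusted p = 0.158). The call was lost without any of 7 of the 10 libraries, 3 of them trained chow mice (1, 2 and 5) and 4 of them trained HFD mice (1, 2, 3 and 4), at -0.79 to -0.71 (edgeR adjusted p = 0.102 to 0.12). Markers of other tissues stood apart by library run. Summed heart markers were 251 and 327 counts in trained chow mice 1 and 2, the highest for Pkm, and 245 to 327 counts over the 5 chow libraries of their run, against 4 to 27 counts in the other 15 vWAT libraries. Summed intestine markers were 232 and 349 counts in trained HFD mice 4 and 5 and 248 in sedentary HFD mouse 5, the 3 libraries of 1 run, against 1 to 13 counts elsewhere. The part of these tissues in the Pkm values was not tested.

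In sedentary mice, HFD against chow gave negative log2 fold changes for all 9 enzymes in vWAT and called 0 of them (edgeR, 4 at an unadjusted p under 0.05, DESeq2 0). Of all 6990 genes, 564 (8.07%) passed, 1390 had an unadjusted p under 0.05 and 51.3% had a negative log2 fold change. Ldha was at -0.55 (edgeR adjusted p = 0.0559), Gapdh at -0.55 (edgeR adjusted p = 0.0859) and Aldoa at -0.44 (edgeR adjusted p = 0.0878). TMM scaling shifted this comparison by -0.21. Training called 0 enzymes in vWAT by edgeR and by DESeq2, beside 216 genes (3.09%) on HFD, 41 genes (0.587%) on chow and 250 genes (3.58%) over both diets. At an unadjusted p under 0.05 there were 0 enzymes, beside 1030, 581 and 1070 genes in the same order. The interaction called 1 gene (0.0143%) and 0 members.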

How the data were processed

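The deposited table held estimated counts per gene for 60 libraries, rounded to whole numbers by the authors, and their log2 CPM, which was not used beyond a check of the unit. Reads were quantified with Salmon 0.14.2 against mm10, per the submitters' processing notes. The labels' protocols describe 3′ digital gene expression libraries with cDNA of 12 wells pooled. Whether molecular identifiers were collapsed and whether strand was used is not given in the sources used here, so reads of Pfkm, Gapdh, Aldoa and Pkm cannot be told apart from those of genes that overlap them, and reads shared with near-identical copies, as of Gapdh pseudogenes, make those levels uncertain. Of 54352 genes, 26846 had 0 counts in every library.

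From the counts, edgeR 4.0.16 (R 4.3.3, limma 3.58.1) fitted the 4 groups of each tissue with TMM factors, filterByExpr by group and robust quasi-likelihood dispersions, and Benjamini-Hochberg adjustment ran over all genes tested in a tissue and comparison (4410 in triceps, 7069 in scWAT and 6990 in vWAT). A call is an adjusted p below 0.05, and SE is the log2 fold change divided by the root of F. A joint fit of all 60 libraries compared tissues. Shares were compared by exact permutation, with Python 3.11.15 and scipy 1.17.1. With 651030 to 744581 counts per triceps library, 3 counts correspond to 4.03 to 4.61 CPM. Of 120 pairs of libraries within groups, 0 were identical. The fits were tested on simulated data with known changes.

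Alternatives were DESeq2 1.42.0, relative log expression factors, total counts, no filter, only the compared groups, the replicate number as a block, the library run as a factor, the run with all groups alone, and leaving out each library. Added after the data were seen were a muscle marker covariate in scWAT and, in triceps, leaving out mitochondrially encoded genes. Same-numbered triceps libraries deviated from their group means with correlations of -0.262 to 0.19 and were not taken as pairs. In scWAT all 5 pairs of trained and sedentary mice on chow had 0.125 to 0.559, and libraries of 1 animal in different tissues, paired by the codes in the titles, had -0.095 to 0.056.

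Named were all 10 members, from each pathway, oxidative or fibre list up to 4 called genes per comparison with the lowest adjusted p (for pathway lists also up to 4 with the lowest unadjusted p on HFD), and the 5 genes most like the members. Fbp2, Gpd2 and, on HFD, Ucp3 fall outside this rule and were named after their values were seen. The members, lists and tests were chosen with earlier results of these data known.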

Additional observations from a re-analysis of the deposited data

Results flagged for a closer look

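Among the 120 groups of 5 libraries formed by the 10 enzymes, 3 tissues and 4 groups, 22 held a library far from the other 4 by Dixon's criterion on TMM-scaled CPM, and chance alone marks about 1 in 20 groups. In triceps this was Pfkm in sedentary chow mouse 4, at 1029.6 CPM, above the next value of 765 CPM.

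In scWAT, trained chow mouse 3 stood apart with 10321 CPM for Aldoa, 8369.6 for Gapdh, 5399.5 for Ldha and 595 for Pgk1. Its summed muscle markers, 65972 counts, were the highest of the tissue. Sedentary HFD mouse 4, with 42855 marker counts, stood apart with 5841 CPM for Aldoa, 3811 for Gapdh, 2930.0 for Ldha, 1464 for Eno3, 1185 for Pgam2, 686 for Pygm, 683 for Pkm and 316 for Pfkm. Sedentary chow mouse 1, with 18560 marker counts, stood apart with 763 CPM for Eno3, 473 for Pgam2, 334 for Pygm and 202 for Pfkm. Ldhb stood apart in 2 other scWAT libraries, at 324 CPM in trained chow mouse 2 and at 272 CPM in sedentary chow mouse 4.

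In vWAT, sedentary HFD mouse 5 had 72.9 CPM for Eno3, 44.9 for Pgam2 and 30.8 for Pygm. All 3 libraries of its run stood apart in muscle markers, with 1746 and 2726 counts in trained HFD mice 4 and 5 and 2018 in this mouse, against 78 to 384 counts in the other 17 vWAT libraries. The same 3 libraries held 232 to 349 intestine marker counts. The part of muscle tissue in these values was not tested.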

How the results depend on the processing

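The counts of members below are given without the share of all genes called in the same fit. The 2 calls for training over both diets in triceps, Ldhb and Pygm, held in all 28 other fits, and the members called numbered 6 on total counts and 5 in the run of 12 libraries. For training on HFD, Pygm was called in 9 of 9 other settings and in 6 of 10 fits without 1 library, and Ldhb in 7 of 9 and 5 of 10 (adjusted p = 0.0893 without a filter and 0.0551 with only the compared groups). The members called were then 6 on total counts, 4 in the run of 12, 1 without a filter, 1 with only the compared groups and 0 to 1 without single libraries: 0 without sedentary mouse 1 or 2 or trained mouse 2 or 3, and 1 without sedentary mouse 3. In scWAT, HFD in trained mice gave 8 with DESeq2, 8 with only the compared groups, 1 with the muscle marker covariate, 0 in the run of 9, 0 in the run of 11, and 1 to 2 without trained chow mouse 3 (1) or any trained HFD mouse. HFD in sedentary mice gave 1 there with the replicate block, 1 with the covariate and 1 without sedentary HFD mouse 4 (Pkm in the fits with the block and the covariate), and DESeq2 gave 1 for training on HFD and 1 for the interaction (Pgam2). In vWAT, HFD in trained mice gave 0 on total counts, 2 without a filter, 0 with the replicate block, 0 for a fit that includes the run, 0 among the 12 libraries of the mixed run, and 0 to 2 without single libraries. HFD in sedentary mice gave 4 without a filter, 2 with only the compared groups, and 1 to 4 without sedentary chow mouse 2 (1) or 5 (4). The 1 reversed value was Ldhb in triceps against scWAT, at -0.11 on total counts. With the replicate block, the Ldhb share on HFD has the same difference of 7.84 points by construction, and the exact sign-flip p of 0.0625 is the smallest that 5 pairs allow, so that fit says nothing about stability. On chow the difference was 2.24 to 4.94 points without single libraries, and it passed without trained mouse 2 (4.94) or sedentary mouse 3 (4.57), each with an exact permutation p of 0.0476. The replicate block changed no other member's call. Beyond the settings' own construction (fewer libraries or genes), the cause was not tested. Depth limits the low values: 19.2 CPM for Ldhb came from 14 counts.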

Other observations

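Of 18 genes for regulators tied to muscle glycolytic or oxidative programmes, 12 were high enough to be tested in triceps, and edgeR called 0 of them for training on HFD, 0 on chow and 0 over both diets. At an unadjusted p under 0.05 there were 2, 0 and 3 of these 12, beside 838, 476 and 945 of all 4410 genes. The genes with an unadjusted p under 0.05 on HFD, named after their values were seen, were Mlxip, which encodes a partner in glucose-sensing transcription (log2 fold change -0.92, SE 0.35, edgeR adjusted p = 0.127), and Mef2d, which encodes a muscle transcription factor (-0.83, SE 0.34, edgeR adjusted p = 0.172). Ppargc1a, the coactivator known for mitochondrial gene programmes, had 0.37 on HFD (SE 0.20, edgeR adjusted p = 0.31) and 0.33 over both diets (SE 0.14, edgeR adjusted p = 0.14). Its level after 24 hours with locked wheels says nothing of an acute bout, which was not measured.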
